A study of Mus musculus with 6 samples.

Results

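The 7 genes described here, Ly6c2, Plac8, Ifitm6, Hp, Cd177, Ace and Treml4, are genes by which mouse blood monocytes are recognised, and all 7 were found by symbol among the 21399 genes listed for each library. Ly6c2, Plac8, Ifitm6, Hp and Cd177 are taken here as genes of classical monocytes and Ace and Treml4 as genes of nonclassical monocytes. The 6 RNA sequencing libraries come from a mouse co-culture, 3 labelled WT and 3 labelled KO. Primary microglia of CD45.2 mice, WT or KO, went through oxygen and glucose deprivation, a culture model of ischaemia, and during reoxygenation received peritoneal macrophages of CD45.1 mice. The deprivation and the CD45.1 macrophages are common to both groups, so WT and KO differ in the microglia. The deleted gene is not named in the labels, though the series title names PPARα, nor do they give an age, sex, Cre driver or pooling scheme. The design text calls the sorted cells microglia yet gives them the macrophages' CD45.1 mark, and nothing says that the 3 libraries of a group are separate cultures or animals, so a p-value here reflects how much these 6 libraries vary, and that variation may be technical.

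Monocytes leave the bone marrow as classical cells, which carry the Ly6C antigen, enter inflamed tissue and there can become macrophages. Some of them convert in the blood to nonclassical cells, which lose Ly6C and patrol the vessel wall. In ischaemic brain, infiltrating monocytes are a main source of macrophages beside the resident microglia. None of the 7 genes is exclusive to monocytes: Hp and Cd177 are also neutrophil genes, Plac8 and Ly6c2 are also expressed by lymphocytes and plasmacytoid dendritic cells, and Ace is best known from endothelium.

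The libraries were alike in depth, with 33759168 to 37380777 reads recovered from the deposited values. Values are given in FPKM, fragments scaled by transcript length and by the size of the library, a scale on which different genes can be compared. B cell genes were abundant in every library, with 9 listed genes summing to 4433 to 5723 FPKM, and T cell genes summed to 183 to 276 FPKM over 10 genes. Of the genes that define microglia, P2ry12 and Sall1 peaked at 1.09 and 0.152 FPKM, and Tmem119 stood at 0.567 ± 0.427 FPKM (WT) and 2.27 ± 0.148 FPKM (KO, SD, n = 3), higher in every KO library (limma adjusted p = 0.10). The summed level of 10 core macrophage genes was 1307 to 3885 FPKM (WT) and 4825 to 11225 FPKM (KO). Within WT, replicate 2 lay nearest to KO on this measure. With such mixed RNA, fewer cells of a type and less RNA per cell cannot be told apart.

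Reference sequence bears on how the values of the most widely used monocyte gene can be read. Ly6c2 encodes the Ly6C antigen together with its neighbour Ly6c1, and both lie on the minus strand of chromosome 15 in mm10, Ly6c2 from 75108158 to 75111970 and Ly6c1 from 75044018 to 75048830. Their coding sequences in GENCODE M21 are 396 bases each and differ by 9 substitutions, an identity of 97.7%. The stretch with the most differences, coding bases 6 to 65 counted from the start codon, is shown here with the differing bases in capitals.
Ly6c2: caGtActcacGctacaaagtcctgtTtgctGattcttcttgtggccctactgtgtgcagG
Ly6c1: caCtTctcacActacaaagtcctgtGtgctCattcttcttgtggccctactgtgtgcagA
These 60 bases hold 6 of the 9 differences. Of the 773 distinct 50-base stretches of the main Ly6c2 transcript, 255 (33.0%) also occur in a transcript of another gene. The sharing genes are chiefly Ly6c1, then I830127L07Rik and Ly6a. A read from such a stretch cannot be assigned with certainty, so the Ly6c2 values are uncertain to that extent. Ly6a stood far above Ly6c2, at a mean of 921 FPKM (WT) and 733 FPKM (KO), and its own part of the shared stretches is not given here. The same share was 5.76% for Cd177, with the predicted genes Gm4763 and BC049730, and 4.14% for Ace, with its antisense neighbour Gm11651. It was 0.0% for Plac8, Ifitm6, Hp and Treml4.

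The genes spanned a wide range of levels. Averaged over the 6 libraries, Plac8 was highest at 171 FPKM, followed by Hp at 50.9, Ly6c2 at 15.7, Ifitm6 at 15.5, Cd177 at 1.20, Treml4 at 0.254 and Ace at 0.0189 FPKM. By mean level Plac8 ranked 283 and Ace 17026 among the genes listed. Hp and Ly6c2 did not differ beyond their spread in WT, and Hp and Plac8 nearly met in KO replicate 1, at 148 and 151 FPKM. Ly6c2 and Ifitm6 were ordered differently in the groups, with Ly6c2 above Ifitm6 within each of the 3 WT libraries and below it within each of the 3 KO libraries, although their ranges over the KO libraries overlapped. The level of Plac8 depends on the length used by the authors: the deposited values imply 4022 bases, where all annotated Plac8 exons cover 1592. That ratio of 2.53 lies above the 95th percentile of 1.82 over 10285 genes. Plac8 would stand higher still by the annotated length if all its reads came from annotated exons, which cannot be checked here. The length alone does not touch a change between libraries.

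**Figure D1:**
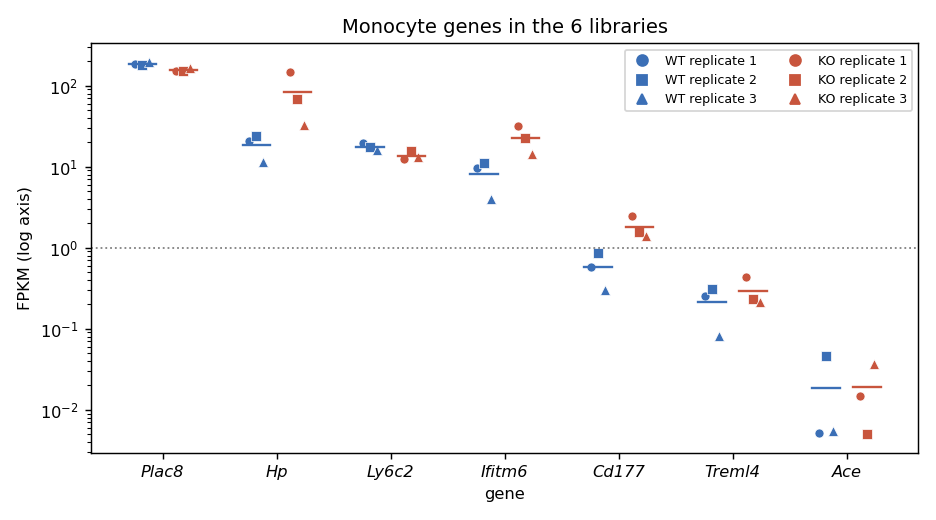
FPKM of the 7 monocyte genes on a log axis, 1 point per library with the symbol giving the replicate, a bar at each group mean (n = 3), and a dotted line at 1 FPKM, the level used as a filter on the mean. Hp, Ifitm6 and Cd177 lie higher in all 3 KO libraries, Ly6c2 and Plac8 slightly lower, and Treml4 and Ace overlap.

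KO was set against WT to see which genes differ with the genotype of the microglia. The 5 classical genes went 2 ways: Hp, Ifitm6 and Cd177 had higher values in every KO library than in any WT library, and Ly6c2 and Plac8 had lower ones. The first group differed by 2.76-fold to 4.46-fold in mean FPKM, the second were 0.775 and 0.841 times the WT mean. The 2 nonclassical genes were near the detection limit in both groups. In a limma fit over the 10732 genes averaging 1 FPKM or more, 0 of the 5 members that passed this filter were called at a Benjamini-Hochberg adjusted p of 0.05, where 0.028% of all genes tested were called higher and 0.0% lower. All 5 had an unadjusted limma p under 0.05, 3 higher and 2 lower in KO, as did 17.1% of all genes tested (8.86% higher and 8.21% lower), and a voom fit of recovered reads called 0 of the 5 as well. The WT and KO values did not overlap for any of the 5, and for 24.9% of all genes tested (9.75% higher and 15.2% lower). Cd177 passed the filter only through its KO values, so these counts describe the members and support nothing.

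Ly6c2, whose product is the surface antigen used to sort classical monocytes, stood at 19.5, 17.6 and 16.0 FPKM in WT replicates 1 to 3 and at 12.3, 15.6 and 13.2 FPKM in KO replicates 1 to 3. The groups did not overlap, but WT replicate 3 and KO replicate 2 nearly touched. The means were 17.7 ± 1.72 and 13.7 ± 1.69 FPKM (SD, n = 3). On the log2(FPKM + 1) scale, which understates the change of low genes, the difference was -0.35 (SE 0.11, 95% interval -0.61 to -0.08, limma adjusted p = 0.20). The values rest on 434 to 654 reads per library. Its near-copy Ly6c1 was lower in level, at 2.05 ± 0.150 FPKM (WT) and 1.52 ± 0.375 FPKM (KO, SD, n = 3), with groups that overlapped.

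The wider Ly6 family, small surface proteins held by a lipid anchor, was expressed mainly through other members. Of 6 listed relatives 0 passed the limma test, and their median difference was -0.25 on the log2 scale, beside -0.06 for all genes tested. Ly6a, the stem cell antigen Sca-1, stood at 921 ± 80.0 FPKM (WT) and 733 ± 42.5 FPKM (KO, SD, n = 3). Ly6d, a B lineage marker, stood at 903 ± 67.0 and 773 ± 70.1 FPKM. Ly6c2 was thus a minor Ly6 transcript in these libraries.

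Plac8, a small cysteine-rich protein abundant in several leukocyte types, varied least between libraries of a group, relative to its mean, among the 7. They were 184, 177 and 196 FPKM in the WT libraries and 151, 153 and 164 FPKM in the KO libraries. Every KO value lay below every WT value. The means were 186 ± 9.41 and 156 ± 7.21 FPKM (SD, n = 3), a log2 difference of -0.25 (SE 0.08, 95% interval -0.44 to -0.05, limma adjusted p = 0.21). At least 22370 reads stood behind each value. The 5 relatives placed on a list beside Plac8 (Plac8l1, Plac9a, Plac9b, Cnfn and Plac1) had no row under these symbols.

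Ifitm6, a member of the interferon-induced transmembrane proteins that is expressed in myeloid cells, stood at 9.52, 11.1 and 4.04 FPKM in the WT libraries, and at 31.4, 22.3 and 14.5 FPKM in KO. WT replicate 3 was the lowest of all 6 libraries and KO replicate 1 the highest. The means were 8.23 ± 3.72 and 22.7 ± 8.46 FPKM (SD, n = 3), 2.76 times as high in KO. The log2 difference was 1.39 (SE 0.37, 95% interval 0.52 to 2.27, limma adjusted p = 0.14). Among its relatives, Ifitm3, which blocks virus entry at the endosome, stood at 165 ± 98.2 and 439 ± 197 FPKM, and Ifitm2 at 30.1 ± 13.8 and 94.99 ± 28.6 FPKM. Neither passed the limma test (adjusted p = 0.20 and 0.11), and Ifitm1 overlapped between the groups. Ifitm5, Ifitm7 and Ifitm10 stayed below 1 FPKM in every library.

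Hp encodes haptoglobin, which binds free haemoglobin and is stored in neutrophil granules as well as secreted by liver. It stood at 20.9, 23.7 and 11.4 FPKM in the WT libraries, and at 148, 68.5 and 32.8 FPKM in KO. The KO libraries differed from each other more than KO replicate 3 differed from WT. The means were 18.7 ± 6.44 and 83.2 ± 59.1 FPKM (SD, n = 3), 4.46 times as high in KO. The log2 difference was 1.90 (SE 0.51, 95% interval 0.71 to 3.10, limma adjusted p = 0.14). It was 1.36 without KO replicate 1 and 2.43 without KO replicate 3, with limma adjusted p-values of 0.39 and 0.14.

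The tested genes of haemoglobin and haem clearance had differences of the same sign as Hp. All 5 of the 8 listed genes that passed the filter had positive differences (median 1.34, beside -0.06 for all genes tested) and 0 passed the limma test. Lrp1, which takes up haem bound to haemopexin, stood at 10.4 ± 5.37 FPKM (WT) and 27.3 ± 1.06 FPKM (KO, SD, n = 3). Hmox1, the inducible haem oxygenase, stood at 58.1 ± 37.8 and 154 ± 90.2 FPKM with groups that overlapped. Cd163, the macrophage receptor for the haptoglobin-haemoglobin complex, reached at most 0.272 FPKM.

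Cd177 encodes a surface protein of neutrophils that presents proteinase 3 and interacts with the endothelial adhesion protein Pecam1. It stood at 0.571, 0.856 and 0.303 FPKM in the WT libraries, and at 2.50, 1.56 and 1.40 FPKM in KO. All WT values were below 1 FPKM and all KO values above it. The means were 0.577 ± 0.276 and 1.82 ± 0.590 FPKM (SD, n = 3), 3.16 times as high in KO, from 29 to 87 reads in WT and 137 to 263 reads in KO. The log2 difference was 0.83 (SE 0.19, 95% interval 0.39 to 1.28, limma adjusted p = 0.12). Without WT replicate 2 Cd177 passed the test (0.96, limma adjusted p = 0.037), and without KO replicate 1 its mean was under the filter.

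The partners of Cd177 did not all follow it. Prtn3, proteinase 3, stood at 1.93 ± 1.40 FPKM (WT, SD, n = 3) and 4.17 ± 1.92 FPKM (KO), with groups that overlapped. Itgam, a chain of the Mac-1 integrin, stood at 103 ± 38.4 and 285 ± 49.6 FPKM. Pecam1 stood at 69.1 ± 3.96 and 62.9 ± 8.40 FPKM.

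**Figure D2:**
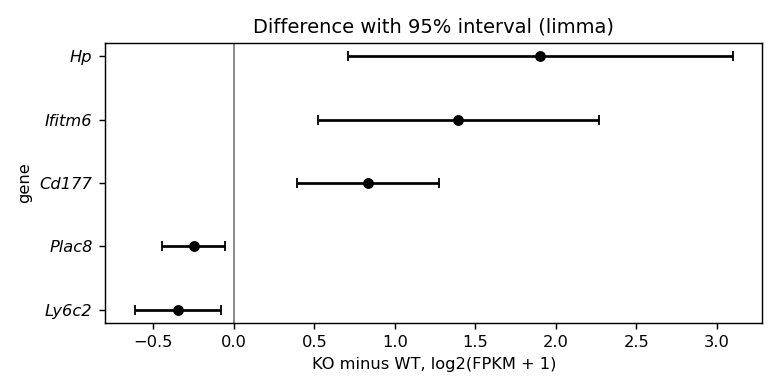
Difference of KO minus WT in mean log2(FPKM + 1) for the 5 members tested, with 95% intervals from the limma fit (n = 3 per group). The unadjusted intervals of Hp, Ifitm6 and Cd177 lie above 0 and those of Plac8 and Ly6c2 below it, while no adjusted p passed 0.05.

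Treml4, a receptor of the TREM-like family on nonclassical monocytes and some splenic macrophages, was detected at a low level. It stood at 0.251, 0.311 and 0.0826 FPKM in the WT libraries, and at 0.437, 0.230 and 0.216 FPKM in KO, from 6 to 35 reads per library. The groups overlapped (0.215 ± 0.118 and 0.294 ± 0.124 FPKM, SD, n = 3, exact two-sided permutation p = 0.6, where 0.1 is the smallest that 3 against 3 allows). The exact 95% Poisson interval of the 6 reads in WT replicate 3 ran from 2.20 to 13.1 reads, which covers counting error only. Of its relatives, Treml1 and Trem3 were also below 1 FPKM in every library, while Treml2, an activating receptor of myeloid and B cells, stood at 29.9 ± 0.956 and 24.3 ± 1.56 FPKM, and Tyrobp, the adaptor DAP12 through which TREM receptors signal, at 170 ± 73.1 and 439 ± 169 FPKM. Of 5 relatives tested 0 passed the limma test, 3 with positive and 2 with negative differences.

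Ace, the angiotensin-converting enzyme, a surface marker of mature nonclassical monocytes, was barely detected. The WT libraries held 1, 9 and 1 Ace reads (0.00519, 0.0459 and 0.00542 FPKM) and the KO libraries 3, 1 and 7 (0.0147, 0.00503 and 0.0371 FPKM). WT replicate 2 and KO replicate 3 held most of the reads. The groups overlapped (exact two-sided permutation p = 1.0), and no difference was detectable at this depth, where the Poisson interval of 1 read runs to 5.57 reads. Ren1 (renin), Agt (angiotensinogen) and the peptidases Enpep and Mme stayed below 1 FPKM in every library. Atp6ap2, the prorenin receptor and an accessory part of the proton pump, stood at 24.6 ± 2.66 FPKM (WT) and 27.6 ± 1.83 FPKM (KO, SD, n = 3), and Agtrap, which binds the angiotensin receptor, at 7.95 ± 2.54 and 14.4 ± 4.40 FPKM. Neither passed the limma test (adjusted p = 0.46 and 0.19).

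Other monocyte genes were then set beside the members. Of 12 further genes of classical monocytes 0 passed the limma test. Of these, 8 had positive and 4 negative differences (median 1.00, beside -0.06 for all genes tested), and their summed level was 299 to 462 FPKM (WT) and 623 to 906 FPKM (KO). Cd14, the co-receptor for endotoxin, stood at 89.4 ± 32.1 FPKM (WT) and 363 ± 112 FPKM (KO), and Vcan, a matrix proteoglycan, at 8.17 ± 2.64 and 27.5 ± 4.96 FPKM (SD, n = 3). Macrophages also express Cd14, Fcgr1 and F13a1. Ccr2, the chemokine receptor that brings classical monocytes out of the marrow, was low and overlapped, at 2.37 ± 0.698 and 2.11 ± 0.639 FPKM. The classical genes were thus divided in the same 2 ways as the members. Ly6c1 is on this list too.

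Of 10 further nonclassical genes tested 0 passed the limma test, with a median difference of -0.02 and 4 positive values. Cx3cr1, the fractalkine receptor of nonclassical monocytes and microglia, stood at 1.10 ± 0.606 FPKM (WT) and 2.00 ± 1.29 FPKM (KO, SD, n = 3). Cd300e, a receptor of nonclassical monocytes, stayed below 1 FPKM in all libraries. Pou2f2, a lymphoid and monocyte transcription factor, stood at 75.0 ± 7.46 and 64.6 ± 4.31 FPKM, and what B cells contribute to it cannot be told apart. The transcription factors were divided: of 8 tested, 4 had positive and 4 negative differences, with a median of 0.01. Without overlap, 2 were higher and 2 lower in KO. Klf2 and Spi1 overlapped, at 230 ± 14.5 and 221 ± 15.3 FPKM and at 81.0 ± 24.6 and 107 ± 15.7 FPKM. Cebpb and Cebpa, factors of the C/EBP family in myeloid cells, stood at 38.0 ± 21.5 and 108 ± 35.5 FPKM and at 7.195 ± 3.80 and 24.0 ± 8.36 FPKM. Irf8, shared by monocytes and B cells, stood at 145 ± 3.34 and 127 ± 3.50 FPKM. Cebpb, Cebpa and Irf8 did not pass (limma adjusted p = 0.13, 0.11 and 0.26).

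Since Hp and Cd177 are also neutrophil genes, neutrophil markers were examined. Of 17 listed, 13 had a row and 6 passed the filter, all 6 with positive differences (median 1.05) and 0 called by limma. Csf3r, the receptor for granulocyte colony-stimulating factor, stood at 8.66 ± 4.29 FPKM (WT) and 27.8 ± 6.97 FPKM (KO), and Mmp8, neutrophil collagenase, at 3.12 ± 1.89 and 8.54 ± 3.38 FPKM (SD, n = 3). The summed level was 11.4 to 42.0 FPKM (WT) and 47.9 to 76.9 FPKM (KO). S100a8, an abundant calcium-binding protein of neutrophils and monocytes, stood at 3.57 ± 3.57 and 8.10 ± 0.313 FPKM (SD, n = 3). Lcn2, a granule protein that binds siderophores, stood at 5.08 ± 3.91 and 6.76 ± 1.43 FPKM, with groups that overlapped. The other 7 genes with a row were below 1 FPKM in every library, among them S100a9, Cxcr2 and Elane at no more than 0.0516, 0.0260 and 0.0306 FPKM. The part of neutrophil RNA in the differences of Hp and Cd177 was not tested.

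**Figure D3:**
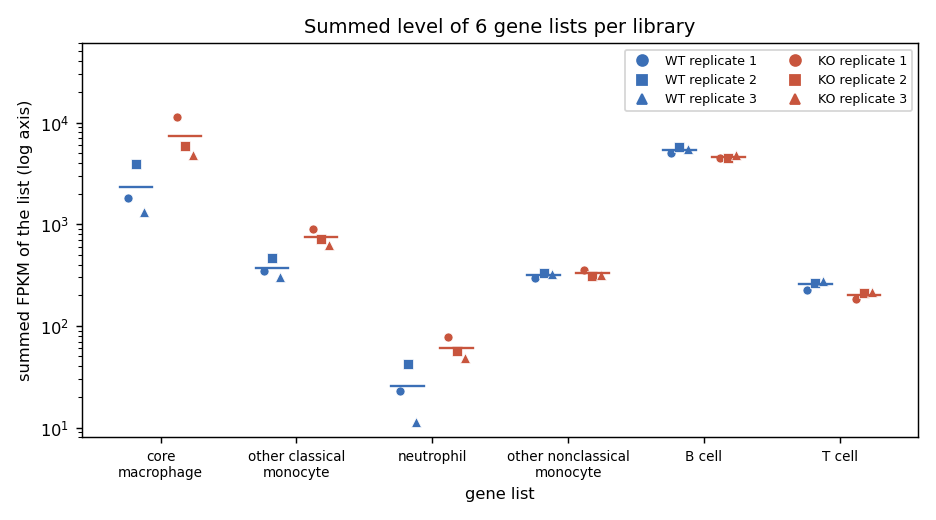
Summed FPKM per library of 6 gene lists on a log axis, 1 point per library with a bar at each group mean (n = 3). The core macrophage, other classical monocyte and neutrophil lists share 1 order of libraries, highest in KO replicate 1 and lowest in WT replicate 3, while the B and T cell lists lie slightly lower in KO.

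Hp, Ifitm6 and Cd177 placed the 6 libraries in 1 identical order, from KO replicate 1 through KO replicates 2 and 3 and WT replicates 2 and 1 down to WT replicate 3. The summed core macrophage, peritoneal macrophage, classical monocyte and neutrophil lists gave that same order, as did 393 genes, 3.66% of all those tested. Peritoneal macrophage genes summed to 1597 to 5648 FPKM (WT) and 6684 to 14115 FPKM (KO). Of 13 tested, 12 had positive differences and 1 a negative one (median 1.65). Ly6c2 and Plac8 each gave another order, both lowest in KO replicate 1. B cell genes summed to 5018 to 5723 FPKM (WT) and 4433 to 4823 FPKM (KO), and T cell genes to 226 to 276 FPKM and 183 to 213 FPKM. All 9 B cell and all 10 T cell genes had negative differences (medians -0.23 and -0.34), and 0 passed the limma test. Whether the lymphoid or the macrophage genes have a part in the members' differences was not tested. Plasma cell genes summed to 480 to 513 FPKM (WT) and 432 to 477 FPKM (KO), and NK cell genes to 16.9 to 26.6 and 15.9 to 18.9 FPKM. Plasmacytoid dendritic cell genes, which include the B cell gene Ly6d, summed to 1022 to 1173 and 946 to 984 FPKM, while their defining marker Siglech reached at most 0.433 FPKM. Of all listed genes 1 was called, F5 (coagulation factor V, a peritoneal macrophage gene), at 5.21 ± 0.536 FPKM in WT libraries against 24.3 ± 3.85 in KO (SD, n = 3, limma adjusted p = 0.0053). Mast cell and basophil genes varied most among the other lists, summing to 10.4 to 563 FPKM (WT) and 108 to 472 FPKM (KO). Conventional dendritic cell genes summed to 125 to 138 and 114 to 125 FPKM, eosinophil genes to 19.3 to 22.5 and 15.4 to 20.4 FPKM, and microglia genes to 94.7 to 118 and 102 to 117 FPKM. Endothelial genes summed to 66.0 to 73.7 and 53.6 to 68.8 FPKM, nearly all of it Pecam1, and mesothelial genes to at most 0.377 FPKM.

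The members were then divided by the summed level of 1 cell type in the same library, a ratio chosen after the values were seen. Lyz2, the lysozyme gene that monocytes and neutrophils also express, made up 73.5% to 77.7% of the core macrophage sum, so the ratio to that sum is mostly a ratio to 1 gene. Per 1000 FPKM of core macrophage genes, Hp stood at 8.79 ± 2.72 FPKM in WT and 10.6 ± 3.36 in KO (SD, n = 3, exact two-sided permutation p = 0.5). Ifitm6 stood at 3.74 ± 1.32 and 3.20 ± 0.544 (exact p = 0.6), and Cd177 at 0.256 ± 0.0521 and 0.260 ± 0.0349 (exact p = 0.9). On this ratio the groups of all 3 genes overlapped. Ly6c2 and Plac8 did not overlap on it, with Ly6c2 at 9.19 ± 4.10 and 2.17 ± 0.927 and Plac8 at 99.1 ± 52.2 and 24.6 ± 10.4 (exact p = 0.1 for both, the smallest possible). For Ly6c2 and Plac8 this was fixed in advance, since their own values were lower, and the sum higher, in every KO library. Treml4 was also lower without overlap, at 0.0939 ± 0.0396 and 0.0410 ± 0.00319 (exact p = 0.1), and Ace overlapped (exact p = 0.5). The own values of Treml4, from few reads, overlapped between the groups. Since the sum was higher in every KO library, a gene of unchanged level also falls on this ratio. With Lyz2 left out of the sum, Hp, Ifitm6, Cd177 and Ace again overlapped, and Ly6c2, Plac8 and Treml4 were again lower in KO without overlap. For Ly6c2 and Plac8 that was again fixed in advance, and the same limit holds for Treml4. Hp then stood at 35.3 ± 10.2 and 44.7 ± 17.2 (exact p = 0.4) and Ly6c2 at 36.8 ± 15.9 and 8.82 ± 3.40 (exact p = 0.1).

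Relative to B cell genes the picture was the opposite. Per 1000 FPKM of B cell genes, Plac8 stood at 34.5 ± 3.06 in WT and 34.1 ± 0.0420 in KO (SD, n = 3, exact two-sided permutation p = 1.0). Ly6c2 stood at 3.30 ± 0.507 and 3.00 ± 0.423 (exact p = 0.5). Hp, at 3.47 ± 1.19 and 18.5 ± 13.6, did not overlap between the groups on this ratio, nor did Ifitm6 and Cd177. For these genes that was fixed in advance, since their own values were higher, and the B cell sum lower, in every KO library. Treml4 and Ace overlapped on it (exact p = 0.5 and 0.8). With 3 libraries a group, a p that misses the threshold does not show that a ratio was the same. When the mean level of the core macrophage genes entered the limma model as a covariate, the differences of Hp, Ifitm6 and Cd177 were 0.16, 0.03 and 0.16. Those of Ly6c2 and Plac8 were -0.30 and -0.10. The covariate itself differed between the groups, so genotype and macrophage level cannot be told apart in this fit.

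**Figure D4:**
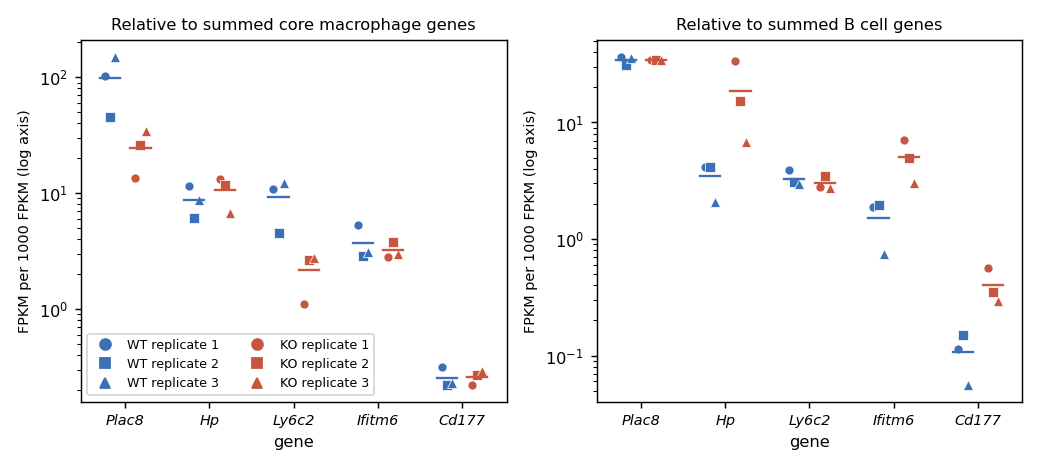
The 5 members tested, as FPKM per 1000 summed FPKM of core macrophage genes (left) and of B cell genes (right), on log axes, 1 point per library with a bar at each group mean (n = 3). Hp, Ifitm6 and Cd177 overlap between the groups on the left, and Plac8 and Ly6c2 on the right.

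The genes most like each member over the 6 libraries were ranked by Pearson's r on log2(FPKM + 1), as a description in which all libraries share the group difference. Cd177 was most like Cd93, a receptor of myeloid and endothelial cells (r = 0.999), which stood at 4.06 to 8.005 FPKM (WT) and 13.4 to 24.6 FPKM (KO). Next came the interferon receptor chain Ifnar2 and Lacc1 (r = 0.998 for both). Ifitm6 was most like Myof, a membrane repair protein (r = 0.998), with Wsb2 (r = 0.997) and the exporter Abcc1 (r = 0.996). Hp was most like the amino acid transporter Slc16a10, Pcyox1 and Clec2g (r = 0.996 for each). Plac8 was most like the lipid kinase gene Pip5k1c and Arfrp1 (r = 0.992 for both) and Hook2 (r = 0.990), and Ly6c2 most like Unc119b (r = 0.992), Zfp874a and the Trim family gene Trim30b (r = 0.988 for both). None of these 15 genes was called by limma.

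The sequence before the start site was examined for 1 member of each direction, as reference sequence from RefSeq (GRCm38.p6), which held entries for 6 of the 7 members. The 250 bases before the start are shown, with matches to any of 4 motifs in capitals. The motifs were searched on both strands as TTGCNNAA for C/EBP, GAAA, any 2 bases and GAAA for the interferon response element, TTCNNNGAA for STAT and GAGGAAG for PU.1. Over 27025 promoters of the same length they occurred in 9.55%, 3.04%, 7.18% and 10.4%. Cd177 lies on chr7:24760312-24760561 (minus strand) in this window and Ly6c2 on chr15:75111972-75112221 (minus strand).
Cd177: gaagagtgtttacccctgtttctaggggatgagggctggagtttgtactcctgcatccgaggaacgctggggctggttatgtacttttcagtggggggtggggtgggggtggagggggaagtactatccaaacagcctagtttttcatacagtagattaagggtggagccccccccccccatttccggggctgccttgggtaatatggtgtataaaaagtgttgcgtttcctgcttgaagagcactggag
Ly6c2: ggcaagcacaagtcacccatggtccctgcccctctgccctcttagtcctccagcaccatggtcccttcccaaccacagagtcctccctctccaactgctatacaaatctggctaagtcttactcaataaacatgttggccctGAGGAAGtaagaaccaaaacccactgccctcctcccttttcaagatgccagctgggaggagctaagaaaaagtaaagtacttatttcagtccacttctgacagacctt
The Cd177 window held no match to these letters, and the Ly6c2 window held a match to the PU.1 motif 108 to 102 bases before the start. The window of a second annotated Ly6c2 start, which overlaps this one, held the same match and 1 more, 8 to 2 bases before that start. In the windows of the others, Ifitm6 had a STAT match 10 to 2 bases before its start, Ace a pair of PU.1 matches, and Plac8 a C/EBP match before 1 of its starts. A match is a string of letters and not a shown binding site.

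In mm10 the remaining members lie on chromosome 5 from 100553725 to 100572245 (Plac8), chromosome 7 from 141015699 to 141017924 (Ifitm6) and 24743983 to 24760311 (Cd177), chromosome 8 from 109575128 to 109579172 (Hp), chromosome 11 from 105967945 to 105989964 (Ace) and chromosome 17 from 48264295 to 48275360 (Treml4). All 7 are protein-coding in GENCODE M21, and Ace is the only one that another annotated gene overlaps. Values are for whole genes, so exons and introns are not separated.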

How the data were processed

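RNA was sequenced from 3 libraries labelled WT and 3 labelled KO, prepared with TRIzol and the VAHTS Universal V6 kit, per the labels' protocols. The authors deposited FPKM, 1 table of 21399 genes per library, and the submitters' processing notes name build mm10. Which aligner, counter, strand setting and gene models were used is "not given in the sources used here", so overlapping and near-identical genes cannot be told apart. FPKM steps gave whole reads within 0.002 reads for 99.99% of 19331 genes with values above 0 in at least 2 libraries, among them 10730 of 10732 genes tested. A divisor shared by a gene's 6 counts would go unnoticed. Read intervals cover counting error only.

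Genes averaging 1 FPKM or more were tested on log2(FPKM + 1) in limma 3.58.1 under R 4.3.3 (moderated by eBayes, trend on, Benjamini-Hochberg at 0.05, 6 libraries, no covariate). For single values the test was an exact permutation over libraries, two-sided. The members and 24 gene lists were chosen with earlier results of these data known. Named were all members, up to 3 list genes by level and 2 by p, and the 3 genes most like each tested member, and a few others (Ccr2, Siglech, Cd163, S100a9, Cxcr2, Elane, P2ry12, Sall1, Cd300e, Prtn3, Fcgr1, F13a1 and the family members under 1 FPKM) by their known role after their values were seen. A list gene that this rule names is not reported here. The limma fit was tested on simulated data: of 200 genes changed 2-fold among 10732, 82.5% were recovered with 4 false calls. The simulated noise was independent between genes, while 393 tested genes shared 1 order of the real libraries, so 82.5% may not hold for them. Alternatives were pseudocounts of 0.1 and 5, no filter or 5 FPKM, 2 other scalings, no trend, a replicate block, a macrophage covariate, voom on recovered reads, and leaving out each library. Length per gene was inferred from reads, FPKM and the recovered total. Python 3.11.15, pandas 2.3.3, numpy 2.4.6, scipy 1.17.1 and matplotlib 3.10.9 were used.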

Additional observations from a re-analysis of the deposited data

How the results depend on the processing

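Over the other settings that gave a value (16 for each of 4 tested members and 14 for Cd177, which was below the filter at 5 FPKM and without KO replicate 1), the 5 tested members kept the direction of their difference, and the only change of call was that of Cd177 without WT replicate 2. With all 6 libraries kept, the log2 difference of Hp ran from 0.16 with the macrophage covariate to 1.96 with median-of-ratios scaling, that of Ifitm6 from 0.03 with the covariate to 1.51 by voom, and that of Cd177 from 0.16 with the covariate to 1.72 by voom, where no pseudocount of 1 is added. Plac8 ran from -0.32 under quantile normalization to -0.10 with the covariate and Ly6c2 from -0.37 by voom to -0.28 with a pseudocount of 5. Leaving out each library gave 0 to 1 members called. Over all genes the count called higher was 3; it was 6 with a pseudocount of 5, 0 with no filter, 0 with the covariate, 5 by voom and 0 to 514 when each library was left out, and the count called lower, 0 otherwise, was 0 to 38 then. The 514 and 38 were both without WT replicate 2.

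With the replicate number as a block the count called higher was 11 and 0 members were called (Hp adjusted p = 0.068, Ifitm6 adjusted p = 0.067, limma). Deviations of libraries with the same number correlated at -0.21, -0.38 and 0.27. With 3 libraries a group, these values cannot decide whether libraries of the same number were paired. Ace and Treml4 lie under every filter used, and their few reads limit what could be seen.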
